A study of Mus musculus with 9 samples.

Results

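AP-1 is a family of dimeric transcription factors, and 10 genes that encode its subunits were described in neutrophils from bone marrow, blood and pancreatic tumor. They were chosen by gene name from a deposited table of 46517 genes. They comprise the FOS proteins (Fos, Fosb, Fosl1, Fosl2), the JUN proteins (Jun, Junb, Jund) and the related leucine zipper factors Atf3, Batf and Maff. Each name matched 1 gene, and all 10 were among the 7794 genes that passed the filter on low values (log2 FPKM over 0 in at least 3 libraries).

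AP-1 proteins pair through a leucine zipper and bind DNA through the basic region next to it. JUN proteins can pair with themselves or with FOS, ATF or BATF partners, whereas FOS proteins need a partner. The pair formed influences which DNA site is bound. Fos, Jun and several relatives are immediate early genes, transcribed within minutes of a stimulus from factors already present in the cell, and in neutrophils they are known to respond to cytokines, adhesion and microbial products.

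The neutrophils came from C57BL/6 mice into whose pancreas tumor cells had been transplanted, referred to as OT mice, on day 27 after transplantation. The tumor cells were a luciferase-expressing line derived from a genetically engineered mouse with pancreatic cancer, injected in Matrigel, and the mice received saline, buprenorphine and enrofloxacin after surgery. Living CD45+ Ly6G+ Ly6C+ cells without CD3, B220 or NK1.1 were sorted into 3 libraries per compartment, each from a pool of mice, and the labels call the bone marrow cells high in Ly6G. Every mouse carried a tumor, and only the tumor was minced and digested with collagenase and DNase, so that compartment and digestion cannot be told apart.

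Between 4579469 and 7948748 reads per library were recovered from the values. The 12 neutrophil markers were detected in every compartment. Their sum was 13328 to 15582 RPM (reads per 1000000 recovered) in tumor against 31642 to 36186 in blood and bone marrow. Il1r2 and Trem1 went the other way, with 63733 and 30916 reads in tumor, 46343 and 16157 in blood and 21283 and 11848 in bone marrow. The 11 markers of tumor epithelium reached 2839 to 5993 RPM in tumor against 168 to 304 in blood and 70.8 to 85.4 in bone marrow, and the 9 fibroblast markers reached 1188 to 1440.1 against 48.7 to 74.5 and 48.6 to 58.0. The 6 acinar markers reached 590.0 to 2563 in tumor and at most 6.44 elsewhere. Of the macrophage markers 10 were in the table, and their sum was 393 to 508 in tumor, compared with 1146 to 1351 in blood and 426 to 466 in bone marrow. Csf1r held most of that sum in blood. Of the 10, 7 had a higher mean in tumor than in blood, and 4 lay above blood in every tumor library. Among these 7 were C1qb at 11.7 against 4.30 RPM and Mrc1 at 6.71 against 1.70 RPM. Csf1r, Ccr2 and Cx3cr1 were lower in tumor, at 233 against 991, 7.76 against 58.2 and 0.30 against 8.54 RPM. Against bone marrow 6 had a higher mean in tumor, and 3 lay above it in every tumor library. All epithelial, fibroblast, acinar and macrophage markers in the table were detected in tumor, and their part in the results below was not tested. In bulk RNA, fewer cells of a type and less RNA per cell cannot be told apart.

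The promoters of Fos, Jun, Atf3 and Maff are shown, which were all higher in tumor and held a match to a site searched for. AP-1 and CREB factors bind sites of this kind. RefSeq promoters on GRCm38.p6 were found for 9 members, all but Fosl1, with 11 start sites. The 250 bases before each start site were searched on both strands. Capitals mark TGACGTCA (the cAMP response element, CRE), TGACGT or its reverse complement (the core of the CRE, contained in it), or TGACATCA (the site described in the Jun promoter). Each line below is read 5′ to 3′ along the strand of the gene.
Fos, chr12:85473640-85473889 (plus strand): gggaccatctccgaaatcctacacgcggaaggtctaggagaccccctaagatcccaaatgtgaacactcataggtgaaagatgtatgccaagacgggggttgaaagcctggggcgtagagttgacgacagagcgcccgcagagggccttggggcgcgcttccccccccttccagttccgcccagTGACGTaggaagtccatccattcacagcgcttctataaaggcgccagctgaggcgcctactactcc
Jun, chr4:95052223-95052472 (minus strand): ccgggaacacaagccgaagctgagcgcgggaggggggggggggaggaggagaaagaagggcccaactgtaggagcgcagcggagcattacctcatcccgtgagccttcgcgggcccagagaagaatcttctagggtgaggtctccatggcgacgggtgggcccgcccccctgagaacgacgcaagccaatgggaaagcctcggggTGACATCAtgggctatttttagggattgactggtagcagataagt
Atf3, chr1:191183334-191183583 (minus strand): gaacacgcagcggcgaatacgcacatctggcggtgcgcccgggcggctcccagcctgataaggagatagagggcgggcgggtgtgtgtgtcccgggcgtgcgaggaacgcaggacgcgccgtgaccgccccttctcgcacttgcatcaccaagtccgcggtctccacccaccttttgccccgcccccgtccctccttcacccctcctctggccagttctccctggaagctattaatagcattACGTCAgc
Maff, chr15:79347270-79347519 (plus strand): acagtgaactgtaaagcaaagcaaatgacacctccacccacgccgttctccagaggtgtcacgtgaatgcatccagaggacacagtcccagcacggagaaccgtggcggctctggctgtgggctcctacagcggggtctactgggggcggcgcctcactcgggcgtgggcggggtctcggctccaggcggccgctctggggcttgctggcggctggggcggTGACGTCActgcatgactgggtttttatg
The complete CRE stood in 1 member, Maff, from position -29 to -22 before the start site, and in 1.77% of 27025 mouse genes over all their start sites (1.55% of 32851 promoters of the same length). Its 6-base core was present in 4 members, at -66 to -61 in Fos, -8 to -3 in Atf3, -98 to -93 in Batf and within the CRE of Maff, and in 7.29% of all genes. TGACATCA lay at -45 to -38 in Jun and at the same positions before another start site of Maff, and in 3.41% of all genes. Fosb and Junb, also higher in tumor, held none of these sites, nor did Fosl2 and Jund. Batf, which held the core, was lower in tumor than in blood. The classical AP-1 site TGANTCA, where N is any base, was in the window of 0 members and in 7.82% of all genes, and the CArG box, which binds serum response factor, in 0 members and in 1.62%. TATAAA was found in Fos alone, at -33 to -28, and in 14.3% of all genes. These matches are letters in a window of 250 bases and say nothing of binding. Sites farther upstream were not searched, so a count of 0 holds for this window only.

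The sum of reads in the 10 genes took 1.07% to 1.25% of all reads in tumor, compared with 0.304% to 0.330% in blood and 0.192% to 0.230% in bone marrow. Tumor libraries had more transcript of Fos, Fosb, Fosl1, Jun, Junb, Atf3 and Maff than both other compartments, which held for 16.5% of all genes tested, whereas Fosl2 and Jund did not pass the test in either tumor comparison. Batf was lower in tumor than in blood. At an adjusted p under 0.05 by limma, 7 of 10 genes were higher in tumor than in blood, where 28.1% of all genes tested were higher. In the same comparison 1 was lower, beside 34.5% of all genes. Against bone marrow, 7 were higher and 0 lower in tumor, beside 22.4% and 32.9%. From bone marrow to blood, 5 were higher and 2 lower, beside 20.6% and 23.6%. In either direction, 62.6%, 55.3% and 44.2% of all genes were called in these 3 comparisons. The comparisons share libraries and are not independent of one another. Of these genes, Fosb, Fosl1 and Maff passed the filter through tumor alone and Batf through blood alone, so that they had to differ, and the counts and the p-values of these 4 genes are given as a description. Atf3 passed it through blood and tumor only, and its p-values against bone marrow are a description too.

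**Figure D1:**
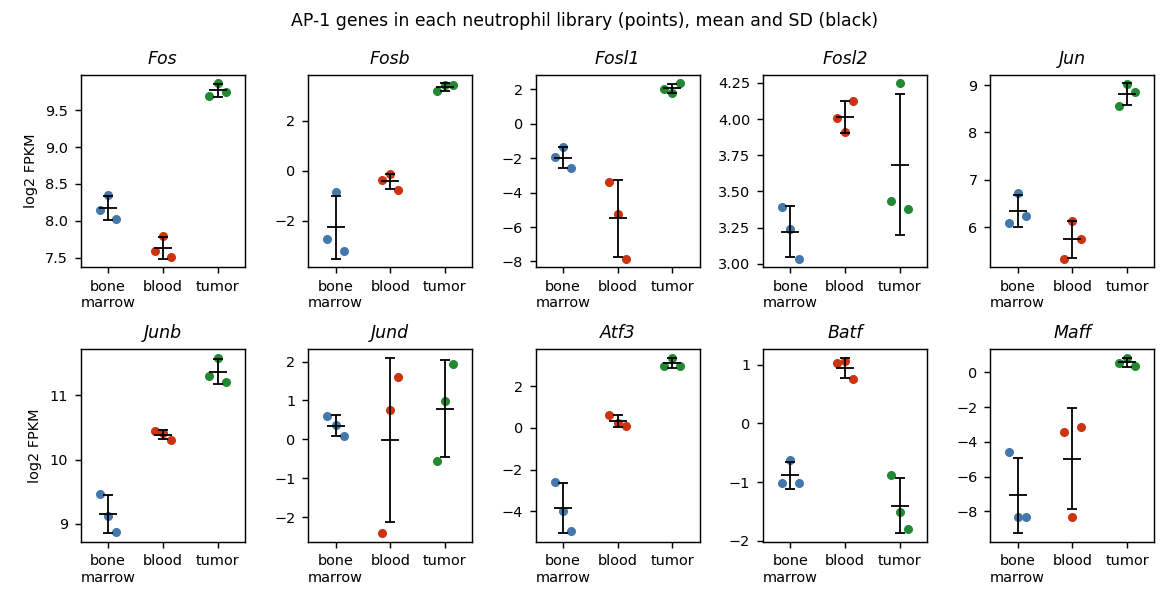
Deposited log2 FPKM of the 10 AP-1 genes in each of the 9 libraries, with 1 panel per gene and its own vertical axis. Coloured points are libraries and black marks give the mean and SD of the 3 libraries of a compartment. Fos, Fosb, Fosl1, Jun, Junb, Atf3 and Maff lay highest in all 3 tumor libraries, and Batf in all 3 blood libraries.

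Values below are log2 FPKM as deposited, for libraries 1, 2 and 3 of a compartment, and differences are log2 fold changes with the standard error (SE) and Benjamini-Hochberg adjusted p of limma over all genes tested. For every called difference of a member the libraries of the compartments did not overlap. In tumor against blood, 30.0% of all genes lay wholly higher and 37.0% wholly lower in this sense, and in tumor against bone marrow 26.2% and 37.7%. From bone marrow to blood the shares were 27.8% and 31.0%. The exact two-sided permutation test gave p = 0.1 for each called difference, which is the smallest that 3 against 3 libraries allow.

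Fos (chromosome 12, 85473890 to 85477273, plus strand of GRCm38) encodes the founding FOS protein, which activates transcription as a dimer with JUN. Its log2 FPKM was 8.15, 8.34 and 8.02 in bone marrow, 7.59, 7.79 and 7.51 in blood and 9.70, 9.87 and 9.74 in the tumor. The 3 compartments did not overlap, with blood lowest and tumor highest. Fos was 4.40-fold higher in tumor than in blood, a log2 fold change of 2.14 (SE 0.12, adjusted p = 6.35e-06), and 3.03-fold higher than in bone marrow, 1.60 (SE 0.12, adjusted p = 2.53e-05). From bone marrow to blood it fell by 0.54 on the log2 scale (SE 0.12, adjusted p = 0.00903).

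Fosb (chromosome 7, 19302696 to 19310051, minus strand) encodes a FOS protein with a truncated form known to build up under repeated stimulation. It had 7, 23 and 5 reads in bone marrow, 22, 37 and 20 in blood and 415, 611 and 630 in the tumor, or log2 FPKM of -2.76, -0.84 and -3.21, then -0.39, -0.14 and -0.77 and then 3.19, 3.46 and 3.44. All tumor libraries were far above the others, while the bone marrow libraries were scattered. The difference was 3.79 (SE 0.56, adjusted p = 0.000599) against blood and 5.63 (SE 0.56, adjusted p = 9.72e-05) against bone marrow. Blood exceeded bone marrow by 1.84 (SE 0.56, adjusted p = 0.0301). Without bone marrow library 2 the differences from bone marrow were 6.35 for tumor and 2.56 for blood. This last call was lost without bone marrow library 1 (adjusted p = 0.0937) or 3 (0.0893) and without blood library 1 (0.0711) or 2 (0.0871), and over all its alternatives the adjusted p ran from 0.000747 to 0.0937.

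Fosl1 (chromosome 19, 5447547 to 5455946, plus strand) encodes FRA-1, which lacks the activation domain of FOS. Its reads numbered 14, 18 and 9 in bone marrow, 3, 1 and 0 in blood and 210, 218 and 335 in the tumor, or log2 FPKM of -1.95, -1.36 and -2.57, then -3.37, -5.26 and -7.83 and then 2.04, 1.81 and 2.36. Tumor was highest and blood lowest, with no overlap. Because blood held so few reads, the ratio of tumor to blood is best given with its counting error, and it was 125 (95% counting interval 48.6 to 459.9, from 763 and 4 reads). By limma the difference was 7.56 (SE 1.00, adjusted p = 0.000340) against blood and 4.03 (SE 1.00, adjusted p = 0.00995) against bone marrow. The former was 8.61 without blood library 1 and 6.38 without library 3. Blood was below bone marrow (log2 fold change -3.53, adjusted p = 0.0228; -4.59 without blood library 1 and -2.36 without library 3), a call lost without bone marrow library 1 (0.0599) or 2 (0.0704) or blood library 2 (0.0504), and over all alternatives the adjusted p ran from 0.00433 to 0.103. In tumor, Fosl1 stood at 38.6, 31.3 and 51.5 RPM in libraries 1, 2 and 3, beside 3746, 2839 and 5993 for the epithelial markers. Both values were lowest in library 2 and highest in library 3, and the part of epithelial RNA in the Fosl1 reads was not tested. Ccdc85b, on the opposite strand, overlaps Fosl1 over 2767 bases, and reads counted without strand cannot be assigned to either there.

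Fosl2 (chromosome 5, 32135801 to 32157842, plus strand) encodes FRA-2, the other FOS protein without that domain. The values were 3.39, 3.24 and 3.04 in bone marrow, 4.01, 3.91 and 4.13 in blood and 3.43, 4.25 and 3.38 in the tumor. Tumor library 2 was the highest of the 9, and the other tumor libraries lay at the upper end of bone marrow and below all of blood. In tumor the difference from blood was -0.33 (95% interval -0.86 to 0.20, adjusted p = 0.242), and from bone marrow 0.46 (-0.07 to 0.99, adjusted p = 0.122). The latter passed the threshold with plain library totals (0.91, adjusted p = 0.00515) and quantile normalization (0.66, adjusted p = 0.0299), with a range over the alternatives of 0.00515 to 0.283, and was 0.18 without tumor library 2. Without tumor library 2 the difference from blood became -0.61 (adjusted p = 0.00514, range over the alternatives 0.00514 to 0.944), whereas plain library totals turned it to 0.12 and quantile normalization to 0.02. Blood was above bone marrow by 0.79 (SE 0.23, adjusted p = 0.0246). The call was lost without bone marrow library 2 (adjusted p = 0.0595) or 3 (0.0823) or blood library 1 (0.0587) or 3 (0.0717), and its adjusted p over all alternatives ran from 0.00177 to 0.0823.

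Jun (chromosome 4, 95049034 to 95052222, minus strand) encodes a JUN protein with a strong activation domain, and is a gene without introns. Its log2 FPKM values were 6.09, 6.73 and 6.23 in bone marrow, 5.33, 6.14 and 5.74 in blood and 8.56, 9.02 and 8.85 in the tumor. All tumor libraries were above all others, and blood and bone marrow touched, with the highest blood library just above the lowest bone marrow library. Jun was 8.41-fold higher in tumor than in blood, 3.07 (SE 0.25, adjusted p = 2.61e-05), and 5.51-fold higher than in bone marrow, 2.46 (SE 0.25, adjusted p = 9.76e-05). Blood and bone marrow differed by -0.61 (95% interval -1.18 to -0.04, adjusted p = 0.0776), which passed the threshold without blood library 2 (log2 fold change -0.81, adjusted p = 0.0374, range over the alternatives 0.00515 to 0.222). The antisense gene Junos overlaps 689 bases of Jun, and reads there cannot be told apart without strand.

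Junb (chromosome 8, 84974484 to 84978718, minus strand) encodes a JUN protein with a weaker activation domain that can restrain JUN and whose loss is known to expand granulocytes. In bone marrow its log2 FPKM was 9.47, 9.12 and 8.88, in blood 10.44, 10.42 and 10.31 and in tumor 11.31, 11.59 and 11.21. The compartments formed 3 separate steps, from bone marrow through blood to tumor. Blood exceeded bone marrow by 1.23 (SE 0.18, adjusted p = 0.00122) and tumor exceeded blood by 0.98 (SE 0.18, adjusted p = 0.00199), so that tumor stood 4.64-fold above bone marrow, 2.21 (SE 0.18, adjusted p = 3.53e-05). With quantile normalization the step from blood to tumor was 0.35 (adjusted p = 0.0918, range over the alternatives 1.93e-05 to 0.0918). Prdx2, on the opposite strand, overlaps Junb over 351 bases.

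Jund (chromosome 8, 70698949 to 70700616, plus strand), whose JUN protein is known for steady expression in resting cells, was sparsely counted. Its reads numbered 29, 21 and 20 in bone marrow, 2, 27 and 41 in blood and 12, 43 and 87 in the tumor. The compartments overlapped, and both blood and tumor held 1 library far below their others. The difference of tumor from blood was 0.81 (95% interval -1.60 to 3.21, adjusted p = 0.523), and from bone marrow 0.44 (-1.96 to 2.84, adjusted p = 0.745). These intervals leave room for changes of either sign. An antisense gene, Gm11175, overlaps Jund over 919 bases and held 0 reads, and what the counting did with reads of both genes was not tested.

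Atf3 (chromosome 1, 191170296 to 191218039, minus strand) encodes a stress-induced factor that often represses inflammatory genes. Its reads numbered 53, 17 and 10 in bone marrow, 290, 318 and 235 in blood and 2282, 3719 and 2965 in the tumor. The log2 FPKM was -2.58, -3.97 and -4.95 in bone marrow, 0.62, 0.26 and 0.07 in blood and 2.95, 3.36 and 2.97 in the tumor. As with Junb, the 3 compartments were separate steps from bone marrow to tumor. Atf3 was 6.85-fold higher in tumor than in blood, 2.78 (SE 0.54, adjusted p = 0.00249), and 122-fold higher than in bone marrow, 6.93 (SE 0.54, adjusted p = 2.68e-05). The latter was 7.56 without bone marrow library 1. The step from bone marrow to blood was 4.15 (SE 0.54, adjusted p = 0.000670) (4.78 without that library) and ranked 73 from the top among 7794 genes tested. Atf3 passed the filter through blood and tumor only, with every bone marrow library below 0. Its differences from bone marrow, with their p-values and rank, are therefore given as a description.

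Maff (chromosome 15, 79346621 to 79359076, plus strand) encodes a small MAF protein, which has no activation domain and is inducible by inflammatory signals. It had 3, 0 and 0 reads in bone marrow, 4, 0 and 6 in blood and 105, 156 and 115 in the tumor. No library outside tumor held more than 6 reads. The ratio of tumor to bone marrow was 109.6 (95% counting interval 37.2 to 534, from 376 and 3 reads), and that of tumor to blood 24.6 (95% counting interval 13.2 to 51.8, from 376 and 10 reads). The limma adjusted p was 0.00398 against bone marrow and 0.0150 against blood. Blood and bone marrow did not pass the test (adjusted p = 0.317), except without blood library 2, which held 0 reads (log2 fold change 3.77, adjusted p = 0.0404, range over the alternatives 0.0404 to 0.626).

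Batf (chromosome 12, 85686669 to 85709087, plus strand) encodes a small factor that pairs with JUN proteins and is best known from lymphocytes and dendritic cells. Its log2 FPKM was -1.01, -0.63 and -1.02 in bone marrow, 1.03, 1.06 and 0.75 in blood and -0.89, -1.52 and -1.80 in the tumor. Blood was above both other compartments in every library, and tumor and bone marrow overlapped. Batf fell by 2.35 on the log2 scale from blood to tumor (SE 0.28, adjusted p = 0.000203) and rose by 1.84 (SE 0.28, adjusted p = 0.00148) from bone marrow to blood. The difference of tumor from bone marrow, -0.51 (95% interval -1.16 to 0.14, adjusted p = 0.159), passed the threshold without tumor library 1 (-0.77, adjusted p = 0.0388, range over the alternatives 0.0309 to 0.875). The sum of the 10 lymphocyte markers was also highest in blood, at 86.3 to 156 RPM in blood, 31.8 to 61.5 in bone marrow and 7.34 to 11.6 in tumor (where Ncr1 and Klrb1c had 0 reads). Cd3d and Nkg7 went the other way, with 96 and 307 reads in bone marrow against 42 and 106 in blood. The part of lymphocyte RNA in the Batf reads was not tested.

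**Figure D2:**
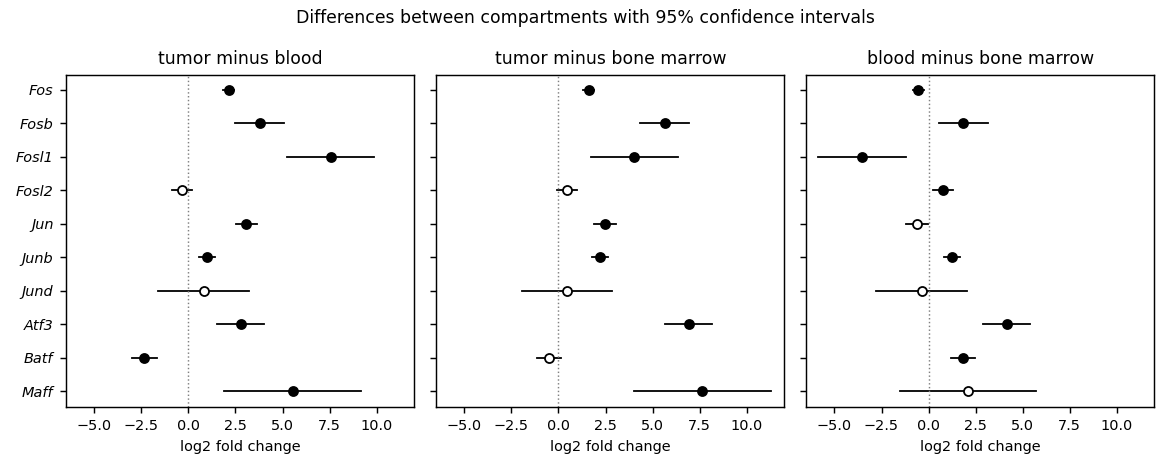
Log2 fold change of each AP-1 gene between compartments by limma on log2 FPKM, 3 libraries per compartment, with 95% confidence intervals as lines. Filled points have an adjusted p under 0.05 and open points do not; 7 genes were higher in tumor in both tumor panels, and Batf was lower in tumor than in blood.

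The scaling of the libraries bears on the size of these differences. The authors' scaling factors were 1.09 to 1.22 in tumor and 0.796 to 0.882 in the other compartments, and with plain library totals the median of all genes moved up by 0.51 in tumor against blood and by 0.50 against bone marrow. The 7 genes higher in tumor were higher in both comparisons under plain totals as well, and all 7 also under quantile normalization, apart from Junb against blood. A pseudocount of 1 FPKM lowered the differences of genes with low levels, in tumor against bone marrow to 3.13 for Atf3, 3.17 for Fosb, 2.04 for Fosl1 and 1.30 for Maff, all still called. Batf in tumor against blood was -1.08 with it and -3.17 with quantile normalization.

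To compare genes with each other, recovered reads were divided by the exon length of each gene and by the scaled library size, since the deposited values mostly used the length of the whole gene with its introns. On this scale, an RPKM over exons, Junb led in every compartment, at 462 ± 95.9 (SD, n = 3) in bone marrow, 1073 ± 53.3 in blood and 2128 ± 298 in the tumor. Fos came next, at 416 ± 47.4, 286 ± 29.3 and 1256 ± 77.0, and then Jun, at 83.0 ± 20.3, 54.7 ± 15.0 and 452 ± 70.0. Junb and Fos overlapped in bone marrow and were separate in blood and tumor. That overlap depends on the length taken for Junb, here 2301 bases, whereas the deposited values used 1840. With 1840 bases Junb was at 707, 557 and 470 in bone marrow libraries 1, 2 and 3. Fos, over its exons, was at 408, 467 and 373 there, so that the ranges were then just apart. Atf3 ranked 7 in bone marrow, then 6 in blood and then 4 in tumor, and there it reached 191 ± 32.5 and lay apart from its neighbours Jun and Fosl2. In bone marrow Jund overlapped with Atf3, Atf3 with Fosl1 and Fosb with Maff, in blood Batf with Atf3, Jund with Fosb and Maff with Fosl1, and in tumor Maff, Batf and Jund at the lower end.

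Junb made up 46.2% ± 5.40 (SD) of the summed level of the 10 genes in bone marrow, 70.9% ± 1.63 in blood and 51.8% ± 2.08 in the tumor. The share of Fos was 41.9% ± 3.59, 18.9% ± 1.12 and 30.7% ± 1.64, and that of Jun 8.37% ± 1.91, 3.61% ± 0.916 and 11.0% ± 1.10. In blood the share of Junb was higher, and that of Fos and Jun lower, than in any library of the other compartments. Atf3 rose from 0.185% ± 0.137 to 1.84% ± 0.329 and 4.63% ± 0.256.

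**Figure D3:**
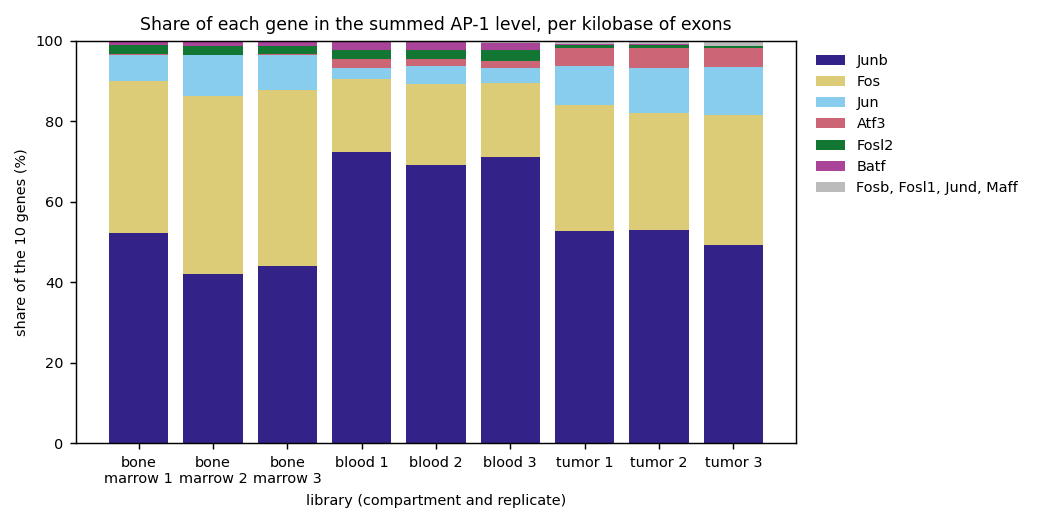
Share of each AP-1 gene, in percent, in the summed level of the 10 genes per kilobase of exons, with 1 stacked bar per library. Junb took 70.9% on average in blood against 46.2% in bone marrow and 51.8% in tumor, and Atf3 is visible from blood onwards.

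Ratios of reads within a library do not depend on the scaling of libraries. Jun per Junb was 0.0503 to 0.0889 in blood, 0.167 to 0.330 in bone marrow and 0.258 to 0.338 in tumor, so that blood lay below both and these overlapped. Fos per Jun was lower in tumor, 1.91 to 2.33, than in blood, 3.35 to 5.06, or bone marrow, 3.25 to 4.43. Fosb per Fos climbed through the compartments without overlap: bone marrow had 0.000858 to 0.00370, blood 0.00691 to 0.00883 and tumor 0.0238 to 0.0274. Atf3 per Jun was 0.00630 to 0.0366 in bone marrow and overlapped between blood, 0.254 to 0.571, and tumor, 0.254 to 0.305.

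The AP-1 genes also differed in the shape of their pattern over the 9 libraries, which fall into 3 compartments and are described here by Pearson's r without a test. Of all genes tested, Atf3 was the most like Junb and Junb the most like Atf3 (0.996), both rising in steps. Fos was closest to Tpi1 (0.995), Jun to Aldh1a3 (0.992), Fosb to Hic1 (0.989), Fosl1 to Actl6a (0.995) and Maff to Bhlhe41 (0.976). Batf was closest to Bloc1s2 (0.990), Fosl2 to RP23-106G24.2 (0.958) and Jund to Crtc2 (0.945). Fos and Jun, both lowest in blood on average, had an r of 0.990 with each other, against 0.664 for Fos with Junb and -0.789 for Fos with Batf.

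Other leucine zipper factors, which can pair with AP-1 proteins or compete for their sites, moved in both directions. Of 22 listed, 11 were tested. In tumor, 2 were higher and 4 lower than in blood, where 28.1% and 34.5% of all genes were. Against bone marrow, 4 were higher and 3 lower, beside 22.4% and 32.9%. Against blood the median of these 11 log2 fold changes was -0.20, where that of all genes was -0.17, and 2.46 for the 10 AP-1 genes. Nfe2, a partner of small MAF proteins in megakaryocytes and granulocytes, fell by 2.74 on the log2 scale from blood to tumor. Bach1, a repressor that pairs with small MAF proteins, fell by 1.98, and Creb1, the founding CRE-binding factor, fell by 1.11. Bach1 passed the filter through bone marrow and blood only. Atf4, the effector of the integrated stress response, was higher by 1.39.

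MAP kinases and serum response factors act on AP-1 genes and proteins. Of 27 listed, 16 were tested, with 3 higher and 6 lower than in blood and 1 higher and 10 lower than in bone marrow, and medians of -0.47 and -0.81 beside -0.17 and -0.21 for all genes. Of all genes tested, 28.1% were higher and 34.5% lower in tumor than in blood, and 22.4% and 32.9% against bone marrow. Mapk14, which encodes the stress kinase p38 alpha, had -2.98 in tumor against blood, and Mapk13, for p38 delta, -1.63. Srf, serum response factor, had -1.67, and its coactivator Mkl1 -2.58. All 4 passed the test, but Mapk14, Srf and Mkl1 passed the filter through bone marrow and blood only. Elk1, among the 10 genes lower in tumor than in bone marrow, passed the filter through bone marrow alone and so had to differ.

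Other immediate early genes were mostly higher in tumor. Of 30 listed, 27 were tested. In tumor, 20 were higher and 1 lower than in blood, beside 28.1% and 34.5% of all genes. Against bone marrow, 22 were higher and 0 lower, beside 22.4% and 32.9%. The medians were 2.42 and 2.93, beside -0.17 and -0.21 for all genes. Egr1, a zinc finger factor, rose by 7.94 (adjusted p = 2.62e-06) and Egr2, its relative, by 4.50 (adjusted p = 0.00409) from blood to tumor. Tnfaip3, which restrains NF-kB signaling, rose by 5.34 (adjusted p = 1.73e-05). Arc, an actin-linked gene known from neurons, had 0, 4 and 0 reads in blood and 118, 133 and 226 in the tumor. It passed the filter through tumor alone and so had to differ, as did Dusp5 and Klf4, which are named for that reason. Egr2, among the 22 higher than in bone marrow, passed it through blood and tumor only. Klf6, a zinc finger factor, was the gene that was lower, at -0.70 (adjusted p = 0.00449), and it was looked up after the count was seen. From bone marrow to blood, 14 were higher and 2 lower, beside 20.6% and 23.6% of all genes, with a median of 1.02 beside -0.04.

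Heat shock genes, reported to rise with AP-1 genes when tissue is digested, were examined because only the tumor was digested. Of 13 listed, 12 were tested. In tumor, 12 were higher than in blood and 12 higher than in bone marrow, beside 28.1% and 22.4% of all genes. The medians were 3.0 and 2.19 beside -0.17 and -0.21 for all genes. Between blood and bone marrow, for which no digestion is described, 1 was higher and 4 were lower in blood, beside 20.6% and 23.6% of all genes. The median was -0.18 beside -0.04 for all genes. The gene higher in blood was Hspa1a, by 2.99 (adjusted p = 0.000965). Hspa1a, for an inducible HSP70, rose by 4.01 (adjusted p = 9.85e-05) from blood to tumor, and its near-identical copy Hspa1b, with which it may share reads, had 0, 1 and 1 reads in blood and 45, 44 and 29 in the tumor. Hspe1, a mitochondrial chaperonin, rose by 4.40 (adjusted p = 0.000721). Hspb1, a small heat shock protein, had 0 reads in blood and was at least 65.7-fold higher in tumor, against a floor of 3 reads over the group. Hspa1b, Hspb1, Hsph1 and Bag3 passed the filter through tumor alone, so that 4 of the 12 had to be higher there. Hspe1 passed it through bone marrow and tumor only, so its difference from blood is given as a description. The part of digestion in the AP-1 values was not tested.

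Genes known as AP-1 targets were also mostly higher in tumor. Of 20 listed, 12 were tested, with 11 higher and 1 lower than in blood, beside 28.1% and 34.5% of all genes. Against bone marrow, 10 were higher and 1 lower, beside 22.4% and 32.9%. The medians were 5.12 and 3.61 beside -0.17 and -0.21 for all genes. From bone marrow to blood, 2 were higher and 3 lower, beside 20.6% and 23.6% of all genes. Spp1, the secreted protein osteopontin, rose by 8.42 (adjusted p = 2.52e-06) from blood to tumor, and Ptgs2, the inducible cyclooxygenase, by 7.0 (adjusted p = 3.48e-06). Timp1, an inhibitor of metalloproteinases with 0 reads in blood, was at least 45.4-fold higher against a floor of 3 reads over the group. Mmp9, the neutrophil gelatinase, was the gene that was lower in both comparisons, at -1.68 (adjusted p = 7.75e-06) against blood, and it was named after the count was seen. Timp1 was among 3 of the 12 targets that passed the filter through tumor alone and had to be higher there. Plau, among the 11 higher than in blood, passed it through bone marrow and tumor only.

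**Figure D4:**
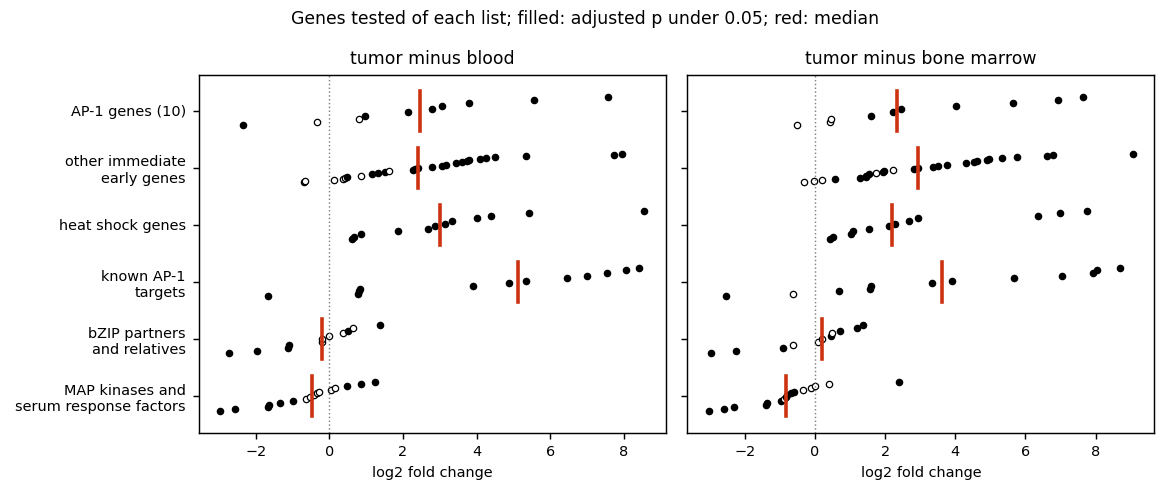
Log2 fold change of each tested gene of 6 lists in tumor minus blood and tumor minus bone marrow, with filled points at an adjusted p under 0.05, open points above it and red bars at the median. The AP-1 genes, other immediate early genes, heat shock genes and known AP-1 targets have medians of 2.19 or more in both panels, whereas leucine zipper relatives and MAP kinases lie around or below 0.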

How the data were processed

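cDNA was made from total RNA by the SMARTSeq v2 protocol, which does not mark strand. The authors mapped reads to GRCm38 with STAR 2.5.2b and counted them per gene with featureCounts 1.5.0, and edgeR 3.8.6 is named in their processing notes. The values analysed are log2 FPKM, calculated by the authors before they were deposited, for 46517 genes and 9 libraries, with the library sizes scaled and a small constant added for genes without reads. Gene length was the genomic span for 40141 genes, which lowers the level of genes with long introns but not their fold changes. Low values move in steps of 1 read, from which whole reads were recovered (99.998% of genes, within 0.01 reads), and this was tested on simulated data. Removal of duplicate reads is not stated in the sources used here, so intervals on reads cover counting error only.

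Genes with a log2 FPKM over 0 in 3 or more libraries were fitted by limma 3.58.1 under R 4.3.3, using eBayes and a trend on intensity, a coefficient for each compartment, all 9 libraries in 1 fit and Benjamini-Hochberg adjustment over 7794 genes at 0.05. The study's limma-voom steps were an alternative on recovered reads, since counts were not the deposited unit. Single values were also compared by an exact permutation test. The replicates of a compartment are separate libraries from pooled mice.

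The members and gene lists were chosen with earlier results of these data known. All 10 members were named, with the gene most correlated with each and the 4 genes of each list with the largest absolute log2 fold change in tumor against blood, except 1 gene that is not reported here. Positions are from GENCODE M21 on GRCm38 and promoters from RefSeq on GRCm38.p6. Alternatives covered the filter, pseudocount, normalization, moderation, replicate block, fold threshold, limma-voom, the compartments fitted and each library left out in turn.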

Additional observations from a re-analysis of the deposited data

How the results depend on the processing

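The 8 AP-1 genes called between tumor and blood fell to 5 under the stricter filter (log2 FPKM over 2), which tested 6 of the 10, and the 7 called between blood and bone marrow fell to 4 with no filter, where Fosb, Fosl1 and Fosl2 no longer passed (Fosb and Fosl1 also when only the compartments compared were fitted). With each library left out in turn, 8 to 9 were called between tumor and blood, 7 to 8 between tumor and bone marrow and 5 to 7 between blood and bone marrow. Fosl2 in tumor against blood turned to 0.020 with quantile normalization and to 0.12 with plain library totals. Jund, which was not called, turned to -0.39 in tumor against blood and to 0.83 in blood against bone marrow without blood library 1 (ranges with each library left out -0.39 to 1.62 and -1.18 to 0.83), to -0.13 in tumor against bone marrow without tumor library 3 (range -0.13 to 1.11), and to 0.039 in blood against bone marrow with a pseudocount of 1 FPKM. The cause of these changes was not tested. Depth limits Maff, Fosl1 and Fosb outside tumor, and Jund throughout.

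The labels do not say whether libraries with the same replicate number came from the same mice. The study describes the compartments as taken from the same mouse, and its libraries as pools of mice from independent experiments. It does not tie replicate numbers to these experiments, so the main fit treated the libraries as unpaired. Deviations of same-numbered libraries from their compartment means correlated at -0.0714 to 0.108 over all genes tested. With 3 libraries per compartment this cannot show whether they were paired. With the number as a replicate block, 8 AP-1 genes were called between tumor and blood, 7 between tumor and bone marrow and 8 between blood and bone marrow, where Jun was added (adjusted p = 0.00515, range over the alternatives 0.00515 to 0.222).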
